A study of Mus musculus with 14 samples.

Results

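The transcriptome of the HIF2A cKO uterus was compared between estrus and diestrus. HIF2A cKO is the label of a conditional knockout of HIF2A, the oxygen-labile transcription factor subunit encoded by Epas1. The members were chosen by expression level alone: a gene was taken when it reached 1 FPKM (fragments scaled to transcript length and to the library's total of mapped fragments) in at least 3 of the 7 HIF2A cKO libraries. This gave 13854 of the 31274 genes in the table. Whole uteri came from intact, unexposed FVB/N mice aged 2 months, and 4 libraries were labelled HIF2A cKO at diestrus (numbered 1, 2, 3 and 4) and 3 at estrus (numbered 1, 2 and 4). The series also holds 4 WT diestrus and 3 WT estrus libraries of the same strain and age, which entered the fit and the test of the difference between genotypes. The labels name neither the Cre line nor the deleted exons, and no deletion or treatment is named as shared by both genotypes. They do not say that the libraries of a group came from separate animals, so the p-values below rest on the differences among these libraries, whose source may be technical.

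The uterus is rebuilt within each estrous cycle. At diestrus progesterone from the corpora lutea acts on stroma and epithelium, and at estrus, after the preovulatory estrogen peak, the luminal epithelium secretes fluid and defence proteins and leukocytes enter the stroma. Progesterone acts through the receptor PGR on epithelial Indian hedgehog (Ihh), whose signal reaches the stroma through the transcription factor GLI1, and estrogen acts through ESR1. HIF2A pairs with ARNT on hypoxia-response sequences and is known in the mouse uterus for its part in the stroma around the implanting embryo.

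Epas1 (chromosome 17, 86753700 to 86833410, plus strand, mm10) was listed at 37.3, 35.1, 45.4 and 40.1 FPKM at diestrus and 45.7, 39.9 and 38.0 FPKM at estrus, in the order of the library numbers, and the stages overlapped. Its log2 difference was 0.06 (SE 0.12, limma, adjusted p = 0.67). In the WT libraries Epas1 ran from 31.2 to 43.5 FPKM at diestrus and from 31.2 to 34.2 FPKM at estrus, so the libraries labelled HIF2A cKO were not lower than WT. Removing single exons, or removing the gene from a few of the cells of the uterus, can leave such a total as it was, and the genotype is therefore named below only as the label gives it. Hif1a, the sister subunit, stood at 93.6, 77.1, 75.9 and 72.1 FPKM at diestrus and 39.8, 45.0 and 40.4 FPKM at estrus, with no overlap (log2 difference -0.91, adjusted p = 0.00018). Arnt, the shared partner, was lower (-0.22, adjusted p = 0.012), a call that was lost with median-of-ratios scaling (adjusted p = 0.114) and quantile normalization (adjusted p = 0.148). Its paralog Arnt2 was higher (0.86, adjusted p = 0.014), as was Egln3, a prolyl hydroxylase that marks HIF subunits for destruction (1.63, adjusted p = 0.00089).

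The 7 libraries summed to between 470944 and 497688 FPKM and had 13372 to 13515 genes at 1 FPKM or more. Log2 values correlated across genes with r of 0.9901 to 0.9926 among the estrus libraries and 0.9608 to 0.9946 among the diestrus libraries, and the median SD per gene was 0.075 at estrus and 0.165 at diestrus on the log2(FPKM + 1) scale. HIF2A cKO diestrus library 3 stood apart: 564 genes (4.07%) lay more than 2-fold from the mean of the other diestrus libraries, against 98 to 153 genes for each of those. It correlated with WT diestrus libraries 2 and 3 at r of 0.981 and 0.978, above its 0.9614 or less with its own group. WT diestrus library 2 was also the closest WT library to the other HIF2A cKO diestrus libraries (r of 0.964 to 0.976). Each of those correlated more highly, at up to 0.9946, with a library of its own group. Deviations from the group mean correlated at 0.63 between library 3 and the WT diestrus library of that number. For the other diestrus numbers this was 0.152 to 0.309. HIF2A cKO diestrus library 4 held more of 2 unrelated signals, adipocyte markers (a summed level of 231 FPKM, against at most 43.3 in the other 6 libraries) and the ribosomal RNA precursor Rn45s (1890 FPKM, against 223 to 819). Library 3 was not like WT in every marker group. Its epithelial markers summed to 934.2 FPKM, within the WT diestrus range of 710.7 to 1078 FPKM. Its peripheral nerve markers summed to 149.1 FPKM, above the WT diestrus range of 48.31 to 96.61 FPKM. Whether the label of HIF2A cKO diestrus library 3 is right was not tested, and the question bears on each diestrus mean and on the comparison with WT. Markers of uterine epithelium, stroma and smooth muscle were measured in every library, whereas 8 of 11 ovary markers, 6 of 8 placenta markers and 5 of 8 oviduct markers were under 1 FPKM in all 7 libraries.

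Of the 13847 genes tested, 8730 passed the threshold (63.0%, limma on log2(FPKM + 1), adjusted p under 0.05). At estrus 3562 genes (25.7%) were higher and 5168 (37.3%) were lower, and 5117 did not pass. A change of at least 2-fold was found for 957 higher genes (6.91%) and 991 lower genes (7.16%). No estrus library overlapped any diestrus library in 8846 genes (63.9%). The median log2 difference of all tested genes was -0.085, and every median of a gene group below is to be read beside it. Every count of a gene group is likewise to be read beside the 25.7% of all tested genes that were higher and the 37.3% that were lower. Of the tested genes, 220 were under 1 FPKM in all diestrus libraries and 217 of these were higher, and 393 were under 1 FPKM in all estrus libraries and 359 of these were lower. Such genes passed the expression filter only through the stage in which they are high, so the counts describe the groups and support nothing further. Among the genes whose library values are printed below, Ifit3 and Chil1 belong to the former set and Ccnb1, Idi1, Nppc and Hhip to the latter. Genes given below by their difference alone were not sorted in this way and may belong to either set. The p-values of all genes of these sets are descriptive in the same way. A further 7 members (the collagen genes Col1a1, Col1a2 and Col3a1, the secreted proteins Ltf, Fcgbp and C3, and Eef1a1) were listed at exactly 0 in all libraries of 1 stage while their mean in the other was at least 50 FPKM, and they were treated as failed estimates and not tested.

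**Figure D1:**
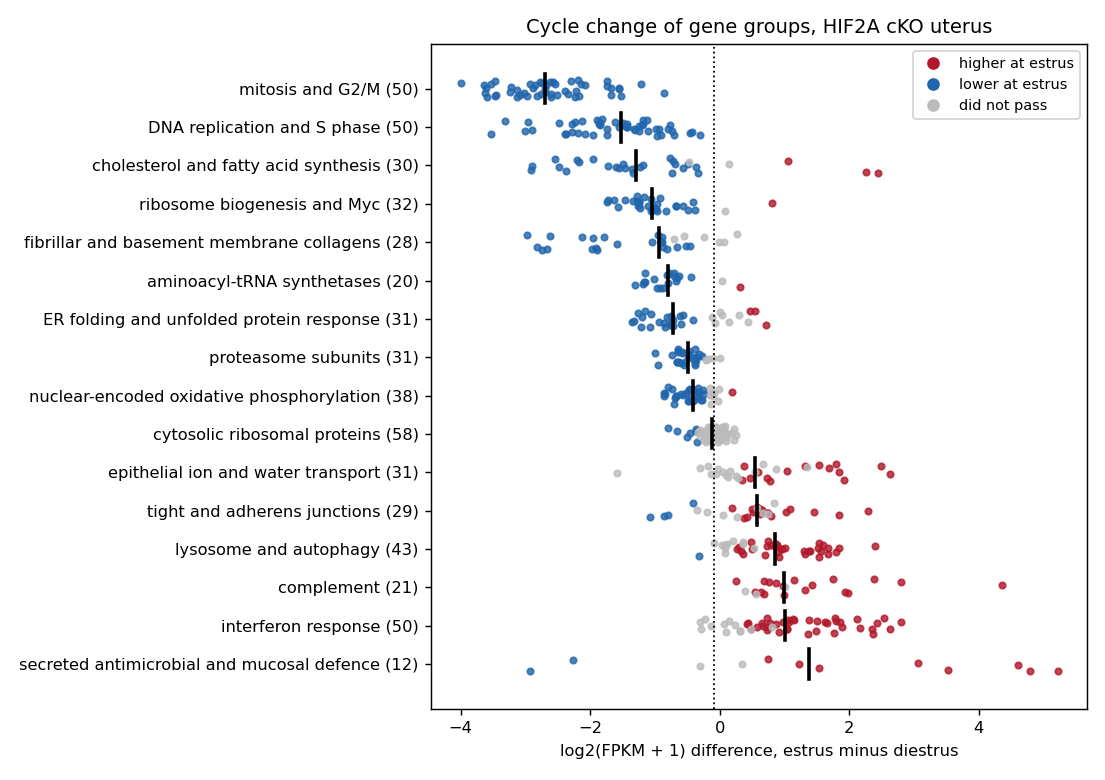
Log2(FPKM + 1) difference, estrus minus diestrus, of each tested member of 16 gene groups in the HIF2A cKO uterus (points, number of members in parentheses), with the group median (black bar) and the median of all tested genes (dotted line, -0.085). Mitotic and S phase genes lie wholly to the left and interferon and complement genes have no member called lower.

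Promoter sequences are shown here for 9 genes of the mitotic, interferon, sterol, lysosomal and hypoxia groups, because each carries a short motif known for its group. The stretches are the 150 bases before the gene start, from RefSeq on GRCm38.p6, written 5′ to 3′ on the gene's strand. Motifs were searched on both strands in windows of 300 bases (250 before to 50 after the start), which 9985 of the 13847 tested genes had. In the mitotic genes Cdc20 (chr4:118437344-118437493, minus strand) and Cdk1 (chr10:69352913-69353062, minus strand) capitals mark the cell-cycle homology region TTTGAA and the CCAAT box, which reads ATTGG on the other strand.
Cdc20: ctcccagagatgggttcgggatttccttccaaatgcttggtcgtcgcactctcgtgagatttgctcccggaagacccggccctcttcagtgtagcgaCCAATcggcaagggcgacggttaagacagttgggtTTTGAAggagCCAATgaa
Cdk1: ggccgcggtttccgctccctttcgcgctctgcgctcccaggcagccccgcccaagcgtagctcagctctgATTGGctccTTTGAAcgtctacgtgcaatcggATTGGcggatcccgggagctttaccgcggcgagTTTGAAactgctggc
In the interferon-induced genes Isg15 (chr4:156200819-156200968, minus strand) and Ifit1 (chr19:34640739-34640888, plus strand) capitals mark the interferon-stimulated response element GAAANNGAAA, which overlaps itself in Isg15.
Isg15: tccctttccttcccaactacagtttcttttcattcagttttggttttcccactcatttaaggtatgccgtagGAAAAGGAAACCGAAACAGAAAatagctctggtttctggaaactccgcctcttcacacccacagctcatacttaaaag
Ifit1: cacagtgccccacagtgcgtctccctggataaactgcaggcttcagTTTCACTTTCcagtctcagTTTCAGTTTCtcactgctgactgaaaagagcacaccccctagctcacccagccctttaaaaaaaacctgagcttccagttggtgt
In the sterol synthesis genes Hmgcs1 (chr13:119690201-119690350, plus strand) and Idi1 (chr13:8885456-8885605, plus strand) they mark the CCAAT box, and in Hmgcs1 also the sterol regulatory element TCACNCCAC, which the Idi1 stretch does not hold.
Hmgcs1: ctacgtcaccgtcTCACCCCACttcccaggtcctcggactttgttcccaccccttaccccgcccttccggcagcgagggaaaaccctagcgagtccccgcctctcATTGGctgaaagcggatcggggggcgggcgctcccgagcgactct
Idi1: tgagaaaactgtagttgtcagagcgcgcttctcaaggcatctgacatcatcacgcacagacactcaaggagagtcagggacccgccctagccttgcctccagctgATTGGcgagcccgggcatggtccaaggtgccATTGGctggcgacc
In the lysosomal gene Ctsa (chr2:164833623-164833772, plus strand) they mark TCACGTG, the core of the CLEAR element, and its reverse complement, which overlap. In the hypoxia-induced genes Bnip3 (chr7:138909507-138909656, minus strand) and Car9 (chr4:43506876-43507025, plus strand) they mark ACGTG, the core of the hypoxia-response sequence. In Car9 the core lies on the other strand and reads CACGT, and in Bnip3 matches on both strands overlap.
Ctsa: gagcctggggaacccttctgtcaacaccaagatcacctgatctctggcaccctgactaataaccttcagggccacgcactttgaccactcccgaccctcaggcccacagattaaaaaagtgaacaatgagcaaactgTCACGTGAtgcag
Bnip3: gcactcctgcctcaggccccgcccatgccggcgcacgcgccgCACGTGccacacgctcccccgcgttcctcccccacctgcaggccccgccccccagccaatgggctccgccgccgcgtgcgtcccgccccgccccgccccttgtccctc
Car9: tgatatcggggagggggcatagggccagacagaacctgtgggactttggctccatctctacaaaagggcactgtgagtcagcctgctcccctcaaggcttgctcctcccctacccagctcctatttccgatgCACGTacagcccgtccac
TTTGAA was present in 29 of the 41 mitotic genes with a window (70.7%) and in 13.9% of all tested genes with a window, and CCAAT in 30 of those 41 (73.2%) and in 42.4% of all. GAAANNGAAA was present in 21 of 37 interferon response genes (56.8%) and in 3.58% of all. TCACGTG was present in 7 of 32 lysosome and autophagy genes (21.9%) and in 7.0% of all, and ACGTG in 19 of 26 hypoxia genes (73.1%) and in 28.9% of all. Of 19 sterol and fatty acid genes, 1 held TCACNCCAC (5.26%, against 1.32% of all) and 14 held CCAAT (73.7%). A match is a description of these letters in the window and not a measured binding site.

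Genes of cell division were low at estrus in the HIF2A cKO uterus, without a measured exception in either list. All 50 mitosis and G2/M genes fell, 49 of them at least 2-fold, with a median of -2.69. All 50 genes of DNA replication and S phase fell, 39 at least 2-fold, with a median of -1.52. Cdc20, which activates the anaphase-promoting complex, stood at 30.8, 35.6, 23.1 and 32.3 FPKM at diestrus and 1.70, 1.69 and 2.00 FPKM at estrus. Ccnb1, the mitotic cyclin, stood at 17.2, 18.0, 13.2 and 18.3 FPKM at diestrus and 0.465, 0.368 and 0.737 FPKM at estrus. Both genes had their lowest diestrus value in library 3, and even that lay far above every estrus library. The log2 differences were -3.48 (SE 0.15, adjusted p = 3.6e-09) for Cdc20 and -3.53 (SE 0.12, adjusted p = 7.2e-10) for Ccnb1. The kinase Plk1 and the cytokinesis factor Prc1 changed by -3.47 and -3.62, and the survivin gene Birc5 by -3.61. Among the S phase genes, Rrm2, the small subunit of the enzyme that makes deoxynucleotides, stood at 18.2, 20.9, 19.3 and 20.9 FPKM at diestrus and 1.86, 1.25 and 1.72 FPKM at estrus. Tk1, a thymidine kinase, and Uhrf1, which brings the maintenance methyltransferase to new DNA, changed by -3.31 and -3.53. Other members moved less: Pcna, the sliding clamp, changed by -1.31 and Mcm7, a helicase subunit, by -0.70. Dnmt1, the maintenance methyltransferase itself, changed by -1.43 (adjusted p = 8.6e-07).

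Brakes on the cell cycle went both ways. Of 26 CDK inhibitor and growth arrest genes, 13 rose and 6 fell (median 0.40). Gadd45b, a stress sensor, stood at 6.49, 7.77, 7.54 and 7.14 FPKM at diestrus and 42.8, 46.1 and 45.6 FPKM at estrus (log2 difference 2.48, adjusted p = 5.3e-08). Its paralog Gadd45g went the other way and stood at 161, 194, 104 and 153 FPKM at diestrus and 22.1, 23.1 and 24.0 FPKM at estrus (-2.64, adjusted p = 2.3e-05). In neither gene did the stages overlap. Trp53inp1, a p53 target of autophagy and arrest, rose by 2.01 and Cdkn1c, which encodes the CDK inhibitor p57, by 1.34. Plk2 and Rbl1 changed by -1.49 and -1.26. Of 27 apoptosis regulators 13 rose and 5 fell (median 0.20): the survival gene Bcl2 rose by 1.54, the death ligand Tnfsf10 by 1.42 and the executioner caspase Casp6 by 1.18, while the death effectors Bax and Bad changed by -0.48 and -0.55. The chromatin list was mixed, with 8 of 33 members higher and 11 lower (median -0.01): the methyltransferase Ezh1 rose by 0.88, the Polycomb reader Cbx7 by 1.20 and the lysine methyltransferase Setd7 by 1.08, and the deacetylase Hdac2 changed by -0.69.

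The machinery that makes ribosomes was lower at estrus, whereas the proteins of the cytosolic ribosome were nearly level. Of 32 genes of ribosome biogenesis and Myc, 30 fell and 1 rose (median -1.05, 18 at least 2-fold lower). Nop56, a core protein of the particles that methylate ribosomal RNA, stood at 66.9, 67.7, 56.9 and 88.2 FPKM at diestrus and 19.0, 18.9 and 22.1 FPKM at estrus (-1.74, SE 0.13, adjusted p = 4.3e-07). Fibrillarin (Fbl), the methyltransferase of the same particle, changed by -1.46, Nop58 by -1.64 and the processing factor Rrp12 by -1.72. Myc, the transcription factor that drives many of these genes, stood at 31.9, 31.7, 54.7 and 47.7 FPKM at diestrus and 22.7, 21.9 and 22.4 FPKM at estrus (-0.83, adjusted p = 0.0028). The riser was Mycn, at 10.9, 13.4, 6.68 and 9.66 FPKM at diestrus and 19.4, 13.8 and 22.2 FPKM at estrus, where the stages nearly touched (0.82, adjusted p = 0.043), and this call was lost when diestrus library 1, 3 or 4 or estrus library 1 or 4 was left out (adjusted p from 0.0572 to 0.145). Of 58 cytosolic ribosomal proteins, 7 fell, none rose and 51 did not pass (median -0.11), against 63.0% of all genes that passed. With quantile normalization 16 of the 58 fell and 2 rose, with median-of-ratios scaling 2 fell, and without diestrus library 3 also 2 fell (median -0.056). Rpsa changed by -0.80 (adjusted p = 0.00089) and Rps2 by -0.66 (adjusted p = 0.00064), whereas Rps27, among the most abundant, stood at 1993, 2037, 2506 and 1614 FPKM at diestrus and 2397, 2261 and 2504 FPKM at estrus and did not pass (adjusted p = 0.24).

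Genes of tRNA charging, protein folding and protein breakdown were lower at estrus as well. Aminoacyl-tRNA synthetases, which charge tRNAs, fell in 18 of 20 members (median -0.80). Aars, the alanine enzyme, stood at 59.6, 60.8, 44.7 and 58.3 FPKM at diestrus and 20.8, 22.6 and 22.3 FPKM at estrus (-1.30, adjusted p = 5.7e-06), and Qars, the glutamine enzyme, was the riser (0.31, adjusted p = 0.015). Of 31 genes of endoplasmic reticulum folding and the unfolded protein response, 21 fell and 3 rose (median -0.73). Hyou1, a chaperone of the reticulum, stood at 99.6, 109, 43.1 and 68.0 FPKM at diestrus and 27.5, 32.6 and 28.1 FPKM at estrus (-1.33, adjusted p = 0.00081). Library 3 was the lowest diestrus library for Hyou1, and it stayed above every estrus library. Ssr1, a translocon protein, changed by -1.36 and the secreted chaperone-like factor Manf by -1.26. The 3 risers were Ero1l, the oxidase of the reticulum (0.72), Ddit3, a stress transcription factor (0.55), and Chac1, whose stages overlapped (0.46) and whose call was lost when diestrus library 2, 3 or 4 or estrus library 2 or 4 was left out (adjusted p from 0.0562 to 0.15). Of 25 heat shock genes, among them the mitochondrial chaperonins Hspd1 and Hspe1 (-1.53 and -1.30), 17 fell and 1, Hspa2, rose (median -0.48). Of 31 proteasome subunits 27 fell and none rose (median -0.49), led by Psmc5 (-0.998) and Psmd14 (-0.95). Of 38 nuclear-encoded genes of oxidative phosphorylation 30 fell and 1 rose (median -0.41), none by 2-fold. Cox6c stood at 495, 549, 554 and 655 FPKM at diestrus and 294, 309.8 and 319.8 FPKM at estrus (-0.86, adjusted p = 2.2e-05), and the riser in the same complex, Cox4i1, at 464, 489.8, 502 and 459.6 FPKM at diestrus and 542, 530.4 and 575 FPKM at estrus (0.20, adjusted p = 0.030). The call of Cox4i1 was lost when diestrus library 1 or 4 or estrus library 1 or 4 was left out (adjusted p from 0.0563 to 0.12). Glycolysis and glycogen genes split evenly, 6 of 26 higher and 6 lower (median -0.10). The hexokinase Hk1 changed by -0.95 and the muscle glycogen phosphorylase Pygm by -1.46, while the aldolases Aldoc and Aldoa rose by 1.12 and 0.66. Ldha, the most abundant member, stood at 403, 426, 367 and 388 FPKM at diestrus and 368, 332 and 380.4 FPKM at estrus and did not pass (adjusted p = 0.48).

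Most genes of cholesterol and fatty acid metabolism were lower at estrus. Of 30 measured genes of cholesterol and fatty acid metabolism 25 fell, 17 of them at least 2-fold, and 3 rose (median -1.29). Sqle, the squalene oxidase of the committed pathway, stood at 46.8, 47.0, 15.01 and 38.5 FPKM at diestrus and 3.69, 3.20 and 3.92 FPKM at estrus. Idi1, the isomerase of the isoprenoid branch whose promoter is shown above, stood at 12.1, 12.0, 3.66 and 10.1 FPKM at diestrus and 0.730, 0.615 and 0.644 FPKM at estrus. In both genes library 3 was the lowest of the diestrus libraries, well below the others, and no estrus library overlapped it. The log2 differences were -2.92 (SE 0.35, adjusted p = 1.4e-05) and -2.54 (SE 0.35, adjusted p = 4.7e-05). The regulator Srebf2 changed by -1.49, its target enzyme Hmgcs1 by -1.72 and the fatty acid elongase Elovl6 by -2.20, all past the threshold. Scd2, an abundant desaturase, moved less and overlapped, at 254, 258, 149 and 257 FPKM at diestrus and 155, 157 and 142 FPKM at estrus (-0.57, adjusted p = 0.0076). The sterol-sensing receptor Nr1h3 did not pass (0.14).

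The 3 members that rose do not make cholesterol. Abca1, which loads cellular cholesterol onto apolipoprotein, stood at 7.66, 7.45, 10.7 and 7.57 FPKM at diestrus and 47.2, 53.9 and 46.7 FPKM at estrus (2.44, SE 0.29, adjusted p = 1.5e-05). Abcg1, which works beside it, stood at 2.44, 2.65, 2.14 and 2.95 FPKM at diestrus and 14.8, 16.9 and 16.1 FPKM at estrus (2.25, adjusted p = 1.9e-05). Apoe, a carrier made in large amounts by macrophages, stood at 558, 578, 557 and 654 FPKM at diestrus and 1158, 1087 and 1427 FPKM at estrus (1.05, adjusted p = 0.0016). Every estrus library lay above every diestrus library in these genes, as the plot of sterol genes by library shows. Of 13 macrophage markers 12 were tested, 10 were higher and none lower at estrus, Cd163 was under 1 FPKM throughout, and their summed level was 244 to 329 FPKM at diestrus and 553 to 736 FPKM at estrus. The part of macrophages in the rise of these 3 genes was not tested. In bulk tissue more cells of a type and more RNA per cell cannot be told apart, and the same holds for fewer cells of a type and less RNA per cell.

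**Figure D2:**
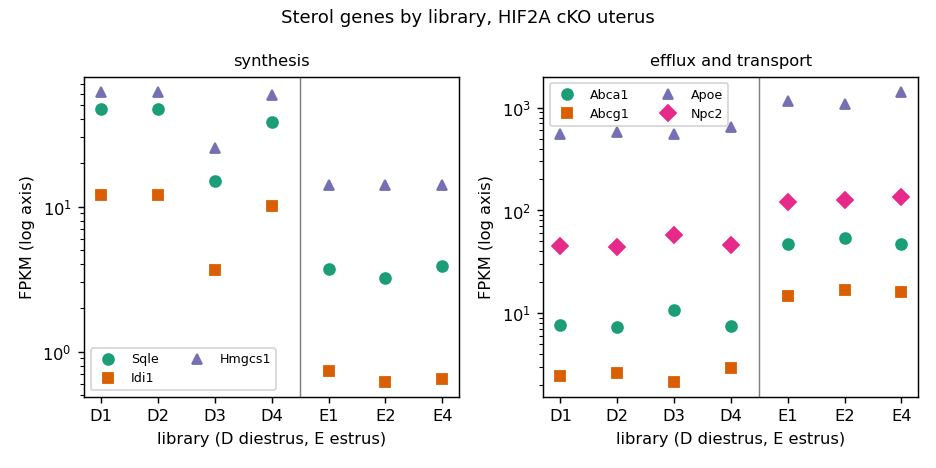
FPKM on a log axis of 3 genes of sterol synthesis (left) and 4 genes of sterol efflux and transport (right) in each HIF2A cKO library (D, diestrus; E, estrus; the number is the library's). Each gene's stages are separate, and diestrus library 3 is the lowest diestrus library for all 3 genes on the left.

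Lysosome and autophagy genes were higher at estrus in 32 of 43 members and lower in 1 (median 0.85, 15 at least 2-fold higher). Ctsl, a cysteine protease of the lysosome, stood at 114, 110.2, 122 and 112 FPKM at diestrus and 589.8, 535 and 705 FPKM at estrus (2.39, SE 0.12, adjusted p = 1.6e-08). Ctsf stood at 6.47, 5.55, 13.1 and 6.86 FPKM at diestrus and 29.4, 28.4 and 31.1 FPKM at estrus (1.84, adjusted p = 2.4e-05). The estrus libraries were all above the diestrus libraries in both genes, and library 3 was the highest diestrus library for Ctsf. The hexosaminidase subunit Hexa rose by 1.68, the cholesterol exporter of the lysosome Npc2 by 1.38, the membrane protein Lamp1 by 0.74, the sphingolipid activator Psap by 1.01 and Ctsa by 1.53. Autophagy genes moved with them: the adaptor Sqstm1 rose by 1.56, the membrane tags Gabarapl1 and Map1lc3b by 1.60 and 1.52 and the initiating kinase Ulk1 by 1.30. The member that fell was Atg5, which conjugates those tags (-0.31, adjusted p = 0.0072, and 0.0505 with median-of-ratios scaling), and Tfeb and Tfe3, regulators of the group, did not pass (0.21 and -0.09). Ctsd, the most abundant member, stood at 266, 279, 1472 and 279 FPKM at diestrus and 573, 579.8 and 659.6 FPKM at estrus and did not pass (adjusted p = 0.39), with library 3 above every other library. Without library 3 its log2 difference was 1.13 (adjusted p = 0.0036). Gpnmb, a lysosomal glycoprotein of phagocytes and among the 20 largest rises of all genes, stood at 1.52, 1.18, 1.20 and 1.90 FPKM at diestrus and 51.4, 55.9 and 56.0 FPKM at estrus (4.51, SE 0.65, adjusted p = 6.1e-05). The macrophage markers given above rose with this group, and their part in it was not tested.

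**Figure D3:**
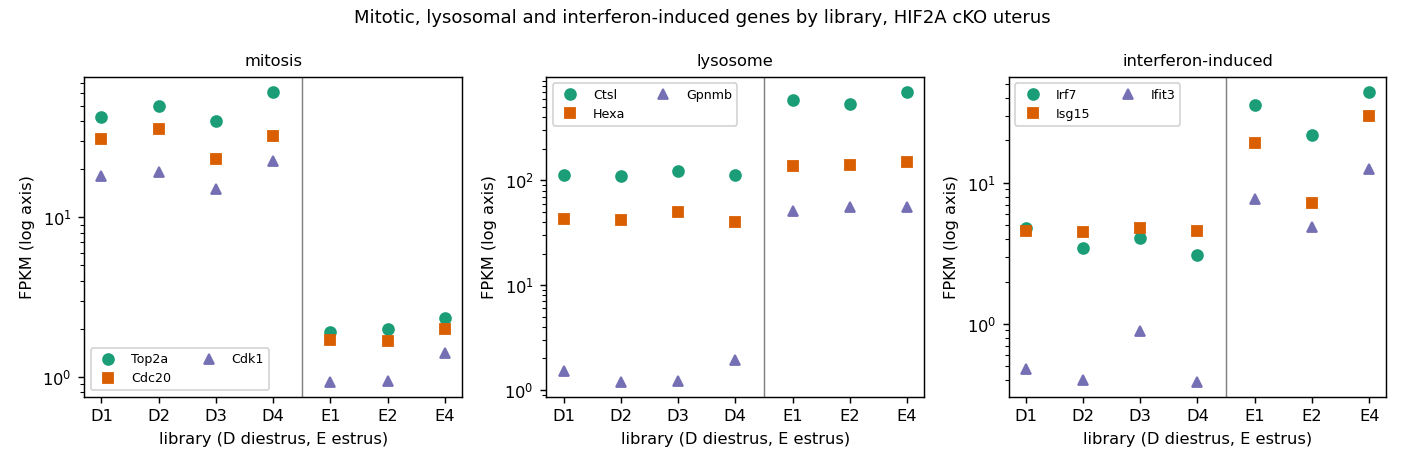
FPKM on a log axis of mitotic genes (left), lysosomal genes (middle) and interferon-induced genes (right) in each HIF2A cKO library (D, diestrus; E, estrus). Every estrus library lies below every diestrus library for the mitotic genes and above them for the others, and estrus library 2 is the lowest estrus library for Irf7, Isg15 and Ifit3.

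Genes of polyamine and arginine metabolism went both ways. Of 24 tested 13 fell and 7 rose (median -0.43). Srm, which makes spermidine, stood at 124, 135, 97.2 and 111 FPKM at diestrus and 17.3, 17.1 and 18.6 FPKM at estrus (-2.65, SE 0.16, adjusted p = 4.9e-08). Odc1, the rate-limiting decarboxylase, stood at 58.1, 58.6, 40.7 and 67.2 FPKM at diestrus and 19.3, 20.2 and 22.1 FPKM at estrus (-1.39, adjusted p = 3e-05). Amd1, which feeds the step of Srm with aminopropyl groups, changed by -1.19. Sat1, the acetyltransferase that starts polyamine breakdown, stood at 71.0, 68.2, 84.3 and 66.4 FPKM at diestrus and 212, 189.8 and 229.7 FPKM at estrus (1.53, adjusted p = 1.4e-07). The oxidases Smox and Paox rose by 1.19 and 0.80, and no stage overlapped in Srm, Odc1 or Sat1. Arg1, which makes ornithine from arginine, stood at 31.6, 25.5, 5.35 and 6.85 FPKM at diestrus and 339, 359 and 209 FPKM at estrus (4.36, SE 0.49, adjusted p = 8.1e-06), with diestrus libraries 1 and 2 well above 3 and 4. Its paralog Arg2 fell (-1.004).

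Collagens and the enzymes that fold and crosslink them were lower at estrus, while several proteases were higher. Of 28 collagen genes tested 22 fell and none rose (median -0.93), and Col1a1, Col1a2 and Col3a1 are among the failed estimates. Col5a1, a fibril-nucleating chain, stood at 223, 217, 142 and 137 FPKM at diestrus and 22.5, 22.1 and 19.5 FPKM at estrus (-2.98, SE 0.24, adjusted p = 5.8e-07). Col6a2, the most abundant tested collagen, stood at 1704, 1633, 1091 and 1195 FPKM at diestrus and 229, 231 and 213 FPKM at estrus (-2.62, adjusted p = 6.3e-08). Even the lowest diestrus library held several times the highest estrus value of both. Of 23 collagen processing genes 19 fell and 2 rose (median -0.81). Serpinh1, the collagen chaperone, stood at 1207, 1296, 829 and 1008 FPKM at diestrus and 221, 225 and 236 FPKM at estrus (-2.23, adjusted p = 4.7e-07), and Fkbp10 and Lepre1, folding and hydroxylating partners, changed by -2.07 and -2.01. The lysyl hydroxylase Plod2 changed by -1.92 (adjusted p = 3.9e-05). The 2 risers were the crosslinking oxidase Lox (0.94) and Leprel1 (0.89).

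Other matrix genes were divided. Of 44 elastic fibre, proteoglycan and matricellular genes 21 fell and 11 rose (median -0.49). Versican (Vcan), a proteoglycan of loose matrix, stood at 25.0, 24.2, 18.2 and 22.9 FPKM at diestrus and 2.37, 2.66 and 2.61 FPKM at estrus (-2.73, adjusted p = 2.4e-08). Elastin (Eln) changed by -2.29 and the hyaluronan synthase Has2 by -2.34. Nov (Ccn3), a matricellular regulator, stood at 2.39, 1.78, 7.79 and 2.55 FPKM at diestrus and 48.9, 49.7 and 58.7 FPKM at estrus (3.69, SE 0.33, adjusted p = 1.6e-06), with library 3 the highest of the diestrus libraries. Thbs2, a matricellular inhibitor of vessel growth, stood at 11.7, 8.58, 5.46 and 6.66 FPKM at diestrus and 53.0, 59.5 and 58.0 FPKM at estrus (2.71, adjusted p = 5.5e-05), and the proteoglycans Prelp and Dcn rose by 1.81 and 0.71. Of 33 matrix proteases and inhibitors 16 rose and 10 fell (median 0.34). Mmp14, a membrane-bound collagenase, stood at 184, 178, 188 and 146 FPKM at diestrus and 501, 548 and 534 FPKM at estrus (1.60, adjusted p = 1.4e-06), and Mmp3 and Mmp7 rose by 2.39 and 4.23. The inhibitor Timp1 stood at 21.0, 19.4, 20.3 and 14.9 FPKM at diestrus and 5.60, 5.85 and 6.36 FPKM at estrus (-1.51, adjusted p = 0.00027), and the versican-cleaving Adamts1 and the sheddase Adam12 changed by -1.79 and -1.76. Stromal fibroblast markers fell in 7 of 12 and rose in 2, with sums of 2309 to 2842 FPKM at diestrus and 2220 to 2333 FPKM at estrus, and their part in the matrix changes was not tested.

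Interferon-induced genes rose together. Of 50 measured, 38 rose and none fell (median 1.01, 25 at least 2-fold higher). Irf7, the transcription factor that amplifies type I interferon, stood at 4.79, 3.48, 4.05 and 3.06 FPKM at diestrus and 35.4, 21.7 and 44.4 FPKM at estrus (2.80, SE 0.22, adjusted p = 4.3e-07). Ifit3, a cytosolic antiviral protein, stood at 0.476, 0.400, 0.889 and 0.386 FPKM at diestrus and 7.69, 4.85 and 12.6 FPKM at estrus (2.53, adjusted p = 1.9e-06). Ifi27l2a stood at 14.5, 13.1, 16.4 and 15.5 FPKM at diestrus and 93.2, 75.3 and 131 FPKM at estrus (2.63, adjusted p = 1.4e-06). The diestrus libraries were uniformly low, and among the estrus libraries number 2 was the lowest and number 4 the highest in all 3 genes. Isg15 and Ifit1, whose promoters are shown above, rose by 1.62 and 2.35, and the synthetase Oas2 by 2.17. The 12 members that did not pass include the most abundant ones, Ifitm3 (656, 629, 850.4 and 522 FPKM at diestrus and 517, 425 and 672 FPKM at estrus, adjusted p = 0.18) and Ifitm2, and the immunoproteasome subunits Psmb8, Psmb9 and Psmb10. Reads of near-identical family members (Ifit, Oas, Ifitm, class I MHC) may have been divided between genes by the authors' estimation, so single values in these families are less certain than the direction of the group.

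Antigen presentation and complement genes moved the same way. Of 21 genes of MHC class I presentation 9 rose and none fell (median 0.31). B2m, the invariant light chain, stood at 305, 285, 369.8 and 294 FPKM at diestrus and 726, 684 and 838 FPKM at estrus (1.26, adjusted p = 1.4e-05), and the lipid-presenting Cd1d1 rose by 2.27. Of 12 class II genes 9 rose and none fell (median 0.51), with the invariant chain Cd74 at 0.61 and H2-Ab1 at 0.73. Of 21 complement genes 18 rose and none fell (median 0.99). Cfi, a protease that inactivates complement fragments, rose by 2.80, and Serping1, the inhibitor of C1, stood at 243, 203, 343 and 189 FPKM at diestrus and 852, 900.2 and 975 FPKM at estrus (1.93, adjusted p = 2.5e-06). Of the components of C1, C1qa and C1qc rose by 0.87 and 1.15. Cfd did not pass, and its values of 2.84, 0.320, 5.49 and 62.4 FPKM at diestrus and 15.7, 7.35 and 6.13 FPKM at estrus were highest in library 4, the library with the adipocyte signal. Chemokine genes rose in 17 of 32 and fell in 3 (median 0.55): Ccl28, a mucosal attractant of plasma cells, stood at 13.6, 12.2, 2.22 and 8.54 FPKM at diestrus and 90.2, 79.5 and 106 FPKM at estrus (3.39, SE 0.65, adjusted p = 0.00054) and Cxcl17 rose by 3.94, while the scavenging receptor Ackr3 changed by -1.54. Of 36 interleukin and receptor genes 14 rose and 9 fell (median 0.24): Il1a rose by 2.36, Csf3 by 2.19 and the macrophage receptor Csf1r by 1.67, while the signalling inhibitor Socs1 stood at 16.8, 20.8, 16.5 and 13.6 FPKM at diestrus and 3.33, 3.32 and 3.30 FPKM at estrus (-2.04, adjusted p = 2e-06).

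Leukocyte markers beside these groups were as follows. The macrophage sum, given above, did not overlap between the stages. Of 14 neutrophil markers 5 were tested and 4 were higher, with sums of 35.7 to 43.6 FPKM at diestrus and 68.9 to 91.0 FPKM at estrus, while 6 were under 1 FPKM throughout and Elane and Ngp were at 0. Of 12 T and B lymphocyte markers 4 were tested and 2 were higher (1 without diestrus library 3), at sums of 5.92 to 8.15 and 8.81 to 10.9 FPKM. Uterine natural killer cell markers had 10 tested and none called, with a sum of 163 FPKM in diestrus library 3, 16.02 to 18.95 in the other diestrus libraries and 24.75 to 32.2 FPKM at estrus. Their median difference was -0.003, and 0.44 without diestrus library 3, again with none called. In the fit of 14 libraries with the replicate number as a block, 8 of the 10 were higher (median 0.517). Mast cell markers rose in 5 of 7 tested, but in 3 without diestrus library 4 and in 0 without diestrus libraries 3 and 4. Their sums of 44.5 to 130 and 73.2 to 87.9 FPKM overlapped. The part of these cells in the rise of the immune genes was not tested.

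Epithelial secretion and barrier genes were higher at estrus. Of 28 listed genes of secreted antimicrobial and mucosal defence 12 were tested, 15 were below the filter and Ltf was a failed estimate. Of the tested, 8 rose and 2 fell (median 1.37). Pigr, which carries immunoglobulin A across the epithelium, stood at 34.5, 42.7, 37.7 and 25.9 FPKM at diestrus and 396, 363 and 480.1 FPKM at estrus (3.53, adjusted p = 3.8e-05). Chil1, a chitinase-like protein, stood at 0.487, 0.482, 0.660 and 0.207 FPKM at diestrus and 35.2, 12.9 and 86.1 FPKM at estrus (4.60, SE 0.52, adjusted p = 8.4e-06), with estrus library 2 again lowest and 4 highest. Its difference was 5.28 without estrus library 2 and 3.95 without estrus library 4. The 2 that fell are whey acidic protein family members, Wfdc1, at 35.2, 43.1, 109 and 54.9 FPKM at diestrus and 7.62, 5.17 and 6.59 FPKM at estrus (-2.92, adjusted p = 3.9e-06), and Wfdc15b (-2.26). Of 15 mucin and apical surface genes 9 rose and 2 fell (median 1.00): Muc4 stood at 13.7, 12.7, 2.29 and 9.26 FPKM at diestrus and 56.9, 54.0 and 68.1 FPKM at estrus (2.73, adjusted p = 0.00065), the adhesion molecule Ceacam1 rose by 2.66, and the anti-adhesive Podxl changed by -0.56. Of 31 ion and water transport genes 15 rose and none fell (median 0.54). Scnn1b, a subunit of the epithelial sodium channel, stood at 1.16, 1.40, 3.77 and 1.75 FPKM at diestrus and 15.5, 15.1 and 14.7 FPKM at estrus (2.49, adjusted p = 3.8e-06), the phosphate carrier Slc34a2 rose by 2.63, and the water channels Aqp1 and Aqp5 by 1.69 and 1.53.

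Junction genes rose in 17 of 29 and fell in 4 (median 0.58). Cldn4, a barrier-forming claudin, stood at 10.7, 9.37, 14.6 and 7.60 FPKM at diestrus and 48.1, 32.0 and 40.1 FPKM at estrus (1.84, adjusted p = 4.3e-05). Cldn2, a pore-forming claudin, rose by 2.29 with an SE of 0.74, its diestrus libraries running from 2.16 FPKM in number 3 to 20.6 FPKM in number 2. Ctnnb1, the catenin that links cadherins to actin, stood at 335, 337, 295 and 344 FPKM at diestrus and 522, 571 and 547 FPKM at estrus (0.74, adjusted p = 2.4e-05), whereas the mesenchymal cadherin Cdh11 changed by -0.79. Small proline-rich genes had 10 of 28 tested, with 4 higher and 2 lower (median 0.25): Sprr2b stood at 1.32, 1.32, 1.45 and 0.476 FPKM at diestrus and 26.9, 10.6 and 59.7 FPKM at estrus (3.68, adjusted p = 1.1e-05) and Sprr2f rose by 2.47. Without estrus library 2 the difference of Sprr2b was 4.29, and since the Sprr2 genes are near-identical copies their single values are uncertain. Of 13 epithelial markers 9 were higher and none lower, and 4 were higher without diestrus libraries 3 and 4. Their sums were 934 FPKM in diestrus library 3, 1236 to 1620 in the other diestrus libraries and 2134 to 2394 FPKM at estrus. Mesothelial markers, of which 4 of 7 were higher, summed to 145 to 245 and 364 to 421 FPKM. The part of the epithelial share in the rise of the secretory and junction genes was not tested.

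Hormone receptors and the genes that respond to them did not move as blocks. Pgr, the progesterone receptor, stood at 74.8, 71.5, 75.1 and 64.0 FPKM at diestrus and 25.9, 25.1 and 22.1 FPKM at estrus (-1.51, adjusted p = 6.2e-06). Esr1 stood at 112, 109.8, 93.2 and 108 FPKM at diestrus and 85.7, 88.8 and 73.3 FPKM at estrus (-0.35, adjusted p = 0.0045), a call that was lost with quantile normalization (adjusted p = 0.129). The stages did not overlap for either receptor. Of 17 receptors and coregulators 9 fell and 4 rose (median -0.34), the risers including Pgrmc1 (0.57) and the mineralocorticoid receptor Nr3c2 (0.51). Of 31 genes known as estrogen-induced 13 rose and 9 fell (median 0.43), all 13 and 8 of the 9 at least 2-fold. Igf1, a stromal growth factor, was among those that fell, at 178, 153, 69.2 and 112 FPKM at diestrus and 14.95, 13.6 and 13.8 FPKM at estrus (-3.01, SE 0.29, adjusted p = 2.5e-06), and Car2, a carbonic anhydrase of the lumen, among those that rose, at 172, 155, 28.7 and 99.4 FPKM at diestrus and 323, 349 and 339 FPKM at estrus (1.84, adjusted p = 0.0053). Of 21 progesterone-induced genes 9 fell, 2 rose and 10 did not pass (median -0.17). Hsd11b2, which inactivates glucocorticoid, stood at 378, 409, 433 and 323 FPKM at diestrus and 64.2, 60.6 and 49.2 FPKM at estrus (-2.71, SE 0.14, adjusted p = 1.8e-08). Hoxa11, a stromal patterning factor, stood at 52.5, 54.5, 123 and 55.7 FPKM at diestrus and 29.8, 35.2 and 32.3 FPKM at estrus (-1.02, adjusted p = 0.0042), with library 3 at more than 2-fold the other diestrus libraries. The decoy receptor Il13ra2 changed by -2.51, and Sgk1, a kinase that also answers glucocorticoid, rose by 0.66. Steroid enzymes rose in 8 of 18 and fell in 4 (median 0.47): Hsd11b1, the counterpart of Hsd11b2 that regenerates glucocorticoid, stood at 1.51, 1.66, 3.12 and 3.32 FPKM at diestrus and 9.28, 9.83 and 11.1 FPKM at estrus (1.74, adjusted p = 3.7e-05), Hsd17b2, which inactivates estradiol, rose by 1.61, and Akr1c18, which inactivates progesterone, by 2.67.

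Of 13 hedgehog pathway genes tested, 5 fell and 1 rose (median -0.21), a share near the 37.3% of all genes that were lower. Without diestrus library 3, 5 fell and 2 rose (median -0.063). Gli1, the transcription factor and target of the pathway, stood at 30.8, 33.8, 73.5 and 38.4 FPKM at diestrus and 1.45, 0.951 and 1.11 FPKM at estrus (-4.30, SE 0.25, adjusted p = 3.6e-08). The pathway inhibitor and target Hhip stood at 1.57, 1.77, 3.75 and 2.23 FPKM at diestrus and 0.0840, 0.0860 and 0.0750 FPKM at estrus (-1.58, adjusted p = 0.0014). The signal transducer Smo and the coreceptor Gas1 did not pass (0.09 and 0.17), although Smo passed with median-of-ratios scaling (0.18, adjusted p = 0.042). The ligand Ihh was below the filter, at 0.377, 0.773, 16.9 and 3.49 FPKM at diestrus and 0.163, 0.174 and 0.307 FPKM at estrus. In WT it stood at 22.99, 19.6, 26.8 and 22.5 FPKM at diestrus and 1.17, 2.35 and 1.31 FPKM at estrus. Among the HIF2A cKO diestrus libraries, number 3 was thus the nearest to the WT diestrus values, and it lay below each of them.

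Growth factor and morphogen families were mixed. Of 24 EGF, FGF and IGF family genes 7 rose and 9 fell (median 0.11), and 9 rose and 8 fell without diestrus library 3 (median -0.090). The receptor Igf1r stood at 4.71, 4.57, 6.02 and 5.21 FPKM at diestrus and 13.2, 13.3 and 14.3 FPKM at estrus (1.26, adjusted p = 1e-06), opposite to its ligand Igf1, and the binding protein Igfbp4 at 513, 547, 611 and 610.1 FPKM at diestrus and 174, 174 and 177 FPKM at estrus (-1.70, adjusted p = 1.7e-08). Hbegf, an EGF receptor ligand of the luminal epithelium, rose by 1.36 and Fgfr2 by 1.00. Of 36 TGF-beta, activin and BMP genes 7 rose and 10 fell (median -0.04): Bmp7 stood at 14.8, 18.6, 16.9 and 17.6 FPKM at diestrus and 2.98, 3.44 and 3.90 FPKM at estrus (-2.02, adjusted p = 4.4e-07), the activin antagonist Fstl3 changed by -1.99, and the latency protein Ltbp2 rose by 2.15. Of 42 Wnt pathway genes 11 rose and 6 fell (median 0.14). The stromal ligand Wnt5a stood at 95.1, 96.6, 80.1 and 93.3 FPKM at diestrus and 25.0, 23.9 and 22.7 FPKM at estrus (-1.89, adjusted p = 5.1e-08), and Rspo3, which amplifies Wnt signals, at 17.0, 15.6, 29.5 and 23.9 FPKM at diestrus and 75.2, 83.5 and 77.5 FPKM at estrus (1.87, adjusted p = 1.4e-05). Both were separate between stages. Notch genes fell in 7 of 16 and rose in 2 (median -0.26), or in 4 without diestrus library 3, with the target Heyl at -1.003 and the ligand Dll4 at 0.58. Of 24 Hox and patterning genes 8 rose and 5 fell (median 0.20), with Hoxc6 at 1.23 and Hoxd11 at -0.86. Of 23 immediate early genes 6 rose and 3 fell (median 0.11), among them Ier3 at 1.39 and Atf3 at 1.18.

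Of 35 hypoxia-induced genes measured, 19 rose and 6 fell at estrus (median 0.44). Bnip3 (chromosome 7, 138890836 to 138909519, minus strand, mm10), a receptor for mitophagy, stood at 11.7, 11.2, 14.6 and 12.8 FPKM at diestrus and 45.8, 44.1 and 47.9 FPKM at estrus (1.80, SE 0.08, adjusted p = 6.6e-09), and the groups were more than 3-fold apart. Ankrd37, a small HIF target, stood at 3.13, 1.98, 0.814 and 1.48 FPKM at diestrus and 10.7, 7.74 and 9.08 FPKM at estrus (1.89, adjusted p = 1.2e-05). Ndrg1 and the carbonic anhydrase Car9 rose by 1.63 and 1.33, and the demethylase Kdm3a by 1.07. The members that fell include Adm, a vasodilator peptide (-0.74, adjusted p = 0.00043), the angiogenic ligand Vegfa (-0.61) and 3 genes of collagen hydroxylation, Plod2, P4ha1 and P4ha2 (-1.92, -0.49 and -0.83). ACGTG, the core sequence marked above in Bnip3 and Car9, was counted with no regard to the direction of change.

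Of 21 clock genes 13 rose and 5 fell at estrus (median 0.82), and 13 and 3 did so without diestrus library 3 (median 0.76). Dbp, a direct clock output, stood at 10.4, 12.7, 16.8 and 14.2 FPKM at diestrus and 115, 109.9 and 105 FPKM at estrus (2.96, SE 0.20, adjusted p = 1.7e-07). Nr1d1, the repressor of Arntl, stood at 8.80, 8.36, 10.9 and 7.73 FPKM at diestrus and 41.3, 42.2 and 36.6 FPKM at estrus (2.05, adjusted p = 1.6e-07). Arntl, the core activator, stood at 8.59, 8.34, 8.93 and 8.81 FPKM at diestrus and 3.15, 2.54 and 2.81 FPKM at estrus (-1.34, adjusted p = 2.3e-06), and its partner Clock changed by -0.69. No library of 1 stage overlapped the other in these 3 genes, while Per1 and Per2 did not pass (0.04 and 0.11). The hour at which tissues were taken is not given in the sources used here, so hour of collection and stage cannot be told apart.

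Contractile genes fell more often than they rose, as did all tested genes (37.3% lower and 25.7% higher), and potassium channel genes were divided. Of 29 smooth muscle genes 14 fell and 4 rose (median -0.36): Cnn1, a calponin, stood at 599, 505, 441 and 388 FPKM at diestrus and 229.6, 214 and 195 FPKM at estrus (-1.16, adjusted p = 4.1e-05) and Actg2 changed by -1.34, while Tagln stood at 1648, 1324, 1218 and 1029 FPKM at diestrus and 2119.6, 2038 and 1974 FPKM at estrus and rose (0.67, adjusted p = 0.0028). Oxtr, the oxytocin receptor, stood at 89.6, 76.3, 21.4 and 33.2 FPKM at diestrus and 19.9, 19.5 and 17.6 FPKM at estrus (-1.27, adjusted p = 0.024), with diestrus libraries 1 and 2 far above 3 and 4. The call of Oxtr was lost when diestrus library 1 or 2 or any estrus library was left out (adjusted p from 0.0525 to 0.0697). Of 24 potassium channel genes 10 rose and 5 fell (median 0.39), led by Kcnk2, a stretch-gated channel of the myometrium, at 1.62, 1.55, 0.749 and 0.742 FPKM at diestrus and 14.7, 17.3 and 18.2 FPKM at estrus (3.06, SE 0.20, adjusted p = 1.2e-07), with the regulatory subunit Kcne4 at -1.71. Prostaglandin pathway genes rose in 5 of 27, or 8 without diestrus library 3, and fell in 9 (median -0.12). Ptgds, a prostaglandin D synthase, stood at 1.09, 1.31, 0.556 and 1.12 FPKM at diestrus and 13.9, 20.5 and 18.4 FPKM at estrus (3.20, SE 0.51, adjusted p = 0.00015), and Akr1b3, a prostaglandin F synthase of the mouse, changed by -0.83.

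Retinoid genes were split, 8 of 21 higher and 9 lower (median -0.21). Stra6, the membrane receptor that takes up retinol, stood at 17.5, 21.8, 23.5 and 25.8 FPKM at diestrus and 2.52, 1.95 and 3.09 FPKM at estrus (-2.72, adjusted p = 1.5e-06), and the synthetic enzyme Aldh1a2 changed by -1.60. Dhrs3, which turns retinal back to retinol, stood at 27.2, 24.5, 23.8 and 29.0 FPKM at diestrus and 83.0, 95.5 and 83.9 FPKM at estrus (1.71, adjusted p = 4.4e-05), and the degrading enzyme Cyp26b1 rose by 1.33. Of 33 iron and oxidative defence genes 12 rose and 9 fell (median 0.02), and 12 and 12 without diestrus library 3 (median -0.021): ceruloplasmin (Cp), a ferroxidase, stood at 28.7, 21.3, 13.2 and 12.0 FPKM at diestrus and 212, 226 and 254 FPKM at estrus (3.63, SE 0.32, adjusted p = 1.2e-06) and the iron exporter Slc40a1 rose by 1.78. The gland list was mixed as well, with 4 of 15 higher and 5 lower (median -0.16), and 3 and 5 without diestrus library 3, where the median was 0.156.

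Several of the 20 largest rises and 20 largest falls lie outside these groups. Nppc, the C-type natriuretic peptide, stood at 43.1, 41.9, 2.99 and 10.6 FPKM at diestrus and 0.601, 0.760 and 0.893 FPKM at estrus (-3.30, SE 0.70, adjusted p = 0.0012), and library 3 was the lowest of the diestrus libraries. Without library 3 the difference was -4.002. Pamr1, a secreted protein of muscle regeneration, stood at 4.90, 4.67, 19.8 and 7.18 FPKM at diestrus and 146, 167 and 171 FPKM at estrus (4.22, adjusted p = 8.9e-06). Inmt, a methyltransferase of tryptamines, stood at 0.406, 0.598, 3.44 and 0.385 FPKM at diestrus and 47.3, 35.6 and 41.8 FPKM at estrus (4.46, SE 0.62, adjusted p = 4.8e-05). In these 2 genes library 3 was the highest of the diestrus libraries, and it did not reach the estrus values. Sftpd, a collectin of mucosal surfaces, rose by 4.23, Trim63, a ubiquitin ligase of muscle, by 4.29 and Pglyrp1, which binds bacterial cell wall, by 3.99. Fkbp14, a collagen-folding isomerase of the reticulum, changed by -3.29.

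The cycle change of the HIF2A cKO uterus was set beside that of WT in the same fit, which has its own diestrus and estrus libraries. Of the genes higher at estrus in HIF2A cKO, 2630 were also called higher in WT (73.8% of the HIF2A cKO calls and 81.9% of the WT calls), and 3993 genes were called lower in both (77.3% and 83.5%). Calls in opposite directions were made for 25 genes. The test of the difference between the 2 changes found 4 genes among 13847 (0.0289%, limma, adjusted p under 0.05), 2 in each direction. Bnip3 rose by 1.80 in HIF2A cKO and 1.00 in WT, a difference of 0.80 (adjusted p = 0.047). The difference was -0.97 for Ksr1, a scaffold of the MAP kinase cascade (-0.63 in HIF2A cKO, 0.34 in WT, adjusted p = 0.047), and -0.70 for Pura, a DNA and RNA binding protein (-0.31 and 0.39, adjusted p = 0.030). The fourth was a numbered gene model. None of the 3 named calls was stable: under 21 alternatives the call was lost in 8 for Bnip3 (adjusted p from 0.0505 to 0.172), in 7 for Ksr1 (0.0505 to 0.153) and in 5 for Pura (0.0505 to 0.0877), among them the fit without the eBayes trend and those without diestrus library 1 or 2 or estrus library 2 or 4.

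**Figure D4:**
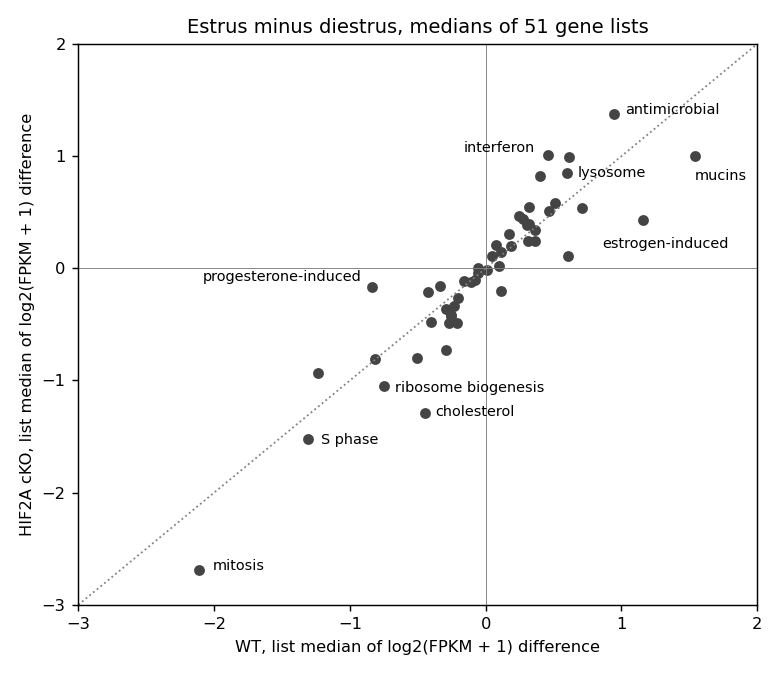
Median log2(FPKM + 1) difference, estrus minus diestrus, of 51 gene lists in WT (x axis) and in HIF2A cKO (y axis), with the line of equal change (dotted). Mitosis genes stood at -2.11 in WT and -2.69 in HIF2A cKO, cholesterol genes at -0.45 and -1.29, and progesterone-induced genes at -0.84 and -0.17.

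The count of such differences rested on diestrus library 3. Without it 521 of the 13847 tested genes had a higher and 660 a lower change in HIF2A cKO, and without libraries 3 and 4 the counts were 771 and 1238. Without library 4 alone they were 9 and 16. The list counts without library 3 that follow are to be read beside the 521 and 660 of 13847 genes. In the cholesterol list 0 of 30 genes differed from WT with all libraries (median difference -0.90) and 23 of 30 had the lower change without library 3 (median -1.11). In the mitosis list 0 of 50 differed (median -0.60) and 35 did without it (median -0.69). In the progesterone-induced list 0 of 21 differed (median 0.38) and 8 had the higher change without it (median 0.68). In the lysosome list 1 gene, Bnip3, differed, and 10 had the higher change without it. Library 3 lay farthest from its own group and closest to WT among the HIF2A cKO diestrus libraries. Leaving it out lowers the spread and moves the diestrus mean away from WT, so more calls are built in. The counts without library 3 describe its weight and are not a test of genotype in these lists. The counts of genes that rose or fell within HIF2A cKO moved little when library 3 was left out (3725 higher and 5225 lower), and in the mitosis, S phase, cholesterol, tRNA synthetase and collagen lists they did not change.

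Single genes in which library 3 differed from the other HIF2A cKO diestrus libraries are given next, chosen after their values were seen. Fst, follistatin, was below the filter and stood at 0.365, 0.375, 9.07 and 0.448 FPKM at diestrus and 0.665, 0.542 and 0.735 FPKM at estrus, and at 4.13, 10.1, 43.2 and 6.84 FPKM in the WT diestrus libraries. Il17rb, an interleukin receptor subunit, stood at 8.06, 9.38, 94.3 and 10.1 FPKM at diestrus and 1.49, 1.29 and 1.38 FPKM at estrus (-2.90, adjusted p = 0.0066, and -2.09, adjusted p = 0.0073, without library 3). Hdc, which makes histamine, stood at 1.38, 2.45, 83.3 and 5.39 FPKM at diestrus and 1.80, 1.74 and 2.75 FPKM at estrus (adjusted p = 0.22), and Gzmb, a granzyme of cytotoxic cells, at 2.35, 3.28, 45.1 and 2.63 FPKM at diestrus and 3.46, 2.50 and 3.04 FPKM at estrus (adjusted p = 0.52). Library 3 was the highest of the 7 libraries in each of these genes. In the other direction, Cd24a, an epithelial surface protein, stood at 550.3, 619.9, 179.7 and 580.0 FPKM at diestrus and 783, 769 and 735 FPKM at estrus with library 3 the lowest. It did not pass (adjusted p = 0.061) but passed without diestrus library 2 (0.98, adjusted p = 0.0362) or 4 (0.95, adjusted p = 0.0468). The labels give library 3 the same stage, strain and genotype as its group. Whether its label is right, and why it stands apart, was not tested.

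**Figure D5:**
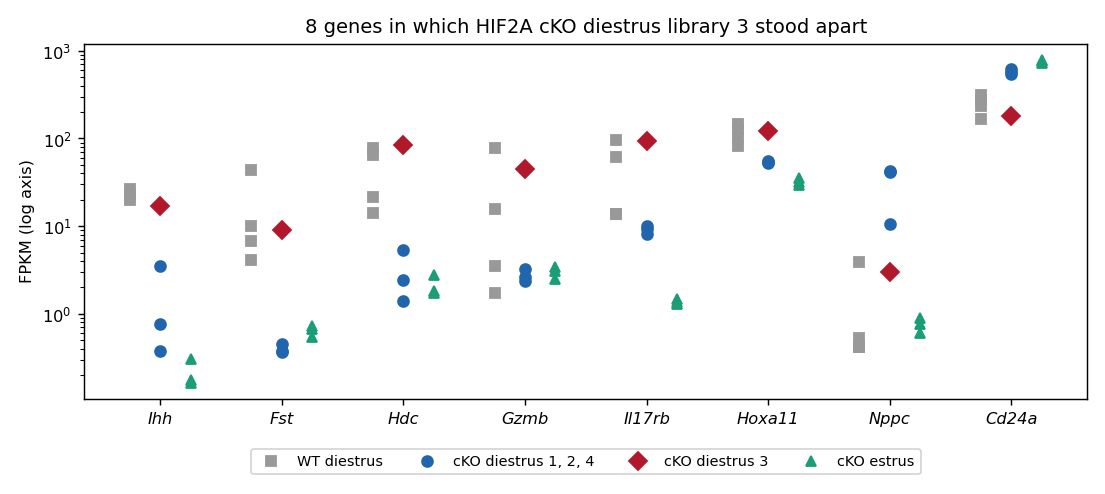
FPKM on a log axis of 8 genes in the WT diestrus (grey squares), HIF2A cKO diestrus (blue circles, library 3 as a red diamond) and HIF2A cKO estrus libraries (green triangles). For Ihh, Fst, Hdc, Gzmb, Il17rb and Hoxa11 library 3 lies above the other HIF2A cKO diestrus libraries, and for Nppc and Cd24a below them.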

How the data were processed

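RNA from whole uteri was purified with an on-column DNase step and made into libraries with an Illumina TruSeq kit, per the labels' protocols. The authors deposited 1 table of FPKM values for 31274 gene symbols in 14 libraries. TopHat2 2.0.4, Cufflinks 2.0.2 and the mouse build mm10 are named in the submitters' processing notes. No source used here gives the role of each tool, the annotation or any scaling. FPKM divides by transcript length and library total, so a few very abundant genes lower all others, and fragments that paralogs or overlapping genes share may be misassigned. An exact 0 can be a failed estimate.

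Groups were taken from the labels. Log2(FPKM + 1) values were fitted with limma 3.58.1 in R 4.3.3, with 1 mean for each of the 4 groups of 14 libraries, a mean-variance trend and Benjamini-Hochberg adjustment over all 13847 tested genes, called at 0.05. With 3 or 4 libraries in a group, the 4 groups shared 1 estimate of the spread. On this scale the log2 difference of a weakly expressed gene is smaller than its true change. The script was tested on simulated data. Genes were kept at 1 FPKM or more in at least 3 of the 7 HIF2A cKO libraries. A gene at 0 in all libraries of 1 stage, but averaging 50 FPKM or more in the other, was left out. At the edge of the filter, 138 genes with a third-highest value of 1 to 1.1 FPKM (median 0.952 FPKM) lay just inside it and 153 genes at 0.9 to 1 FPKM (median 0.832 FPKM) just outside.

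Reads were not used, so absolute depth is unknown and no counting error can be given. The steps of the lowest FPKM values gave a clear ratio of depth in 6 of 21 pairs of the HIF2A cKO libraries, where diestrus library 2 was 1.70 times as deep as diestrus library 3 and 1.56 and 1.66 times as deep as estrus libraries 1 and 2.

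The genes and lists were chosen with earlier results of these data known. Named are Epas1, Hif1a, Esr1 and Pgr, the 20 largest rises and 20 largest falls (averaging 5 FPKM or more in the higher stage, no overlap, no small RNAs or numbered gene models), the 3 largest rises, 3 largest falls and 2 most abundant members of each list, and the largest differences from WT. Other genes are examples chosen after their values were seen. Not all named genes are printed, and some results are not reported here. Gene positions are 1-based, from GENCODE M21 on mm10. Promoter windows are from RefSeq GRCm38.p6.

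The alternatives were other pseudocounts (0.1 and 5), filters and scalings, kept zeros, the 7 libraries alone, other eBayes settings, library weights, a replicate block and each library left out. Groups share replicate numbers in the labels. Within HIF2A cKO, deviations of same-numbered libraries of the 2 stages correlated at 0.028, 0.014 and 0.020, so the numbers were not taken to pair them. Between genotypes they correlated at 0.309, 0.152, 0.63 and 0.216 at diestrus and at 0.148, 0.113 and -0.024 at estrus.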

Additional observations from a re-analysis of the deposited data

Results flagged for a closer look

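In 32 of 253 genes named above or below, 1 of the 4 HIF2A cKO diestrus libraries lay far from the other 3 for their range (Dixon's criterion). Chance marks about 1 group in 20, but some of these genes are printed because library 3 differed in them and all share the same libraries, so the count is a description. Among the 396 genes that the naming rule took there were 37. The library apart was number 3 in 23 genes and number 4 in 9 genes, and numbers 1 and 2 in none.

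Library 3 was the highest, in FPKM, for Ctsd (1472), Dcn (1173), Hoxa11 (122.6), Il17rb (94.3), Hdc (83.3), Psmb8 (52.0), Gzmb (45.1), Hoxd11 (21.3), Pamr1 (19.8), Arg2 (18.3), Mest (17.8), Abca1 (10.7), Fst (9.07), Ovgp1 (7.84), Nov (7.79) and Inmt (3.44). It was the lowest for Cd24a (179.7), Scd2 (149.4), Akr1b3 (47.4), Aars (44.7), Kcne4 (25.6), Hmgcs1 (25.2) and Elovl6 (8.78). Library 4 was the highest for the ribosomal RNA precursor Rn45s (1890.0), Cfd (62.4) and Mcm7 (39.3), and the lowest for Sqstm1 (135.1), Gas1 (128.7), Qars (43.9), Meg3 (26.0), Aldoc (5.21) and Sprr2b (0.476).

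The cycle change differed between genotypes in the interaction test for Bnip3 (0.80 higher in HIF2A cKO on the log2 scale), Ksr1 (-0.97) and Pura (-0.70). All 3 calls were lost without the eBayes trend and without diestrus library 1, diestrus library 2, estrus library 2 or estrus library 4.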

How the results depend on the processing

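The counts of genes higher and lower at estrus stayed within 1.5 times their values under all 23 alternatives. Median-of-ratios scaling gave 4284 higher and 4303 lower, so that 49.9% of the calls were higher, against 40.8% as reported, and moved the median of all genes from -0.085 to 0.003. With a pseudocount of 5, 473 genes were at least 2-fold higher and 492 at least 2-fold lower. Leaving out each library in turn gave 3135 to 3725 higher and 4660 to 5225 lower genes.

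The counts of genes whose cycle change differed from WT (2 higher and 2 lower in HIF2A cKO) were not stable. They were 4 lower with a pseudocount of 5, 4 higher and 8 lower without the filter, 1 higher with a filter at 5 FPKM, 5 higher with failed estimates kept in, 1 higher with median-of-ratios scaling, 0 higher and 1 lower with quantile normalization, 0 and 0 without the eBayes trend, and 2288 higher and 2897 lower with library weights. Leaving out 1 library gave 0 to 521 higher and 0 to 660 lower, with 521 and 660 without diestrus library 3, 9 and 16 without diestrus library 4, and 0 or 1 without each of the other 5 HIF2A cKO libraries. Leaving out diestrus libraries 3 and 4 together, an alternative chosen after the data were seen, gave 771 and 1238. The cause was not tested. In the alternatives where limma called 0 genes in a direction, 1740 to 2444 genes were at an unadjusted p under 0.05.

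With a replicate block the fit of 14 libraries called 3937 genes higher and 5385 lower and the interaction 239 and 240, and the 7 libraries alone called 3845 and 5128. In the block of 14 libraries 8 of 10 uterine natural killer cell markers were higher (none without it), as were 14 of 21 MHC class I genes (9), 10 of 23 immediate early genes (6), 8 of 27 prostaglandin genes (5) and 4 of 58 ribosomal proteins (none), of which 3 were lower (7). Ovgp1, an oviduct gene, reversed with the replicate block in the 7 libraries (0.54, adjusted p = 0.0118, against -0.11, not called). Of the 396 genes that the naming rule took, 311 kept their direction and side of the threshold under all 23 alternatives. Over all genes and settings 8707 results did, 260 lost the call, 54 gained it, 33 without a call moved and 1 reversed.

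Depth in reads is unknown, so no counting error can be set beside a low FPKM value. The fit assumes 1 spread for all groups, although the diestrus libraries varied more.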

Other observations

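Imprinted genes were not listed as a group above, although Cdkn1c was given there among the growth arrest genes. Picked after their values were seen, the imprinted genes went both ways at estrus in the HIF2A cKO uterus. Rian, a long noncoding RNA of the Dlk1 region on the maternal allele, stood at 22.5, 23.6, 19.1 and 16.7 FPKM at diestrus and 0.843, 0.907 and 1.30 FPKM at estrus (log2 difference -3.41, SE 0.34, limma, adjusted p = 3.3e-06). Meg3, its neighbour in the same cluster, stood at 42.7, 41.9, 42.7 and 26.0 FPKM at diestrus and 8.32, 6.88 and 8.76 FPKM at estrus (-2.11, adjusted p = 0.0002). The stages were separate in both. Mest changed by -1.58, the adaptor Grb10 by -0.98, the growth factor Igf2 by -0.78, Peg3 by -0.74 and Ndn by -0.63, all past the threshold. In the other direction Cdkn1c rose by 1.34, the receptor Igf2r by 0.93, its antisense transcript Airn by 0.74 and Sgce by 0.55. Airn overlaps Igf2r on the other strand, and without a stated use of strand their fragments cannot be told apart. Plagl1, Peg10, Impact and Nnat did not pass (0.10, -0.22, 0.11 and 0.09).

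Peripheral nerve markers were tested in 5 of 8 genes, of which 4 were higher and 1 lower at estrus, while their summed level was 149 to 264 FPKM at diestrus and 51.3 to 62.2 FPKM at estrus. Most of the sum was Ngfr, the nerve growth factor receptor, which is also made outside nerve and stood at 248.9, 239, 137 and 163 FPKM at diestrus and 31.3, 28.4 and 23.1 FPKM at estrus. Erythroid markers summed to 476 to 881 FPKM at diestrus and 189 to 377 FPKM at estrus, with 2 of 4 lower and none without diestrus library 3, which held the highest sum (476 to 534 FPKM in the other diestrus libraries).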
